A study of Mus musculus with 16 samples.

Results

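The clustered protocadherins were examined here as the genes whose symbol carries the Pcdha, Pcdhb or Pcdhg stem of the alpha, beta and gamma gene clusters and whose counts summed to at least 50 over all 16 mice, so the members were chosen by symbol and summed count. Of 54532 genes in the table, 58 had such a symbol and 55 reached the count limit, 12 in the alpha, 22 in the beta and 21 in the gamma cluster. Levels, which rest on the same counts, are therefore a description. Just inside the limit were Pcdha8 with 171 and Pcdhb1 with 212 counts, and just outside were Pcdha4 with 30, Pcdhga10 with 27 and a gene of 9 counts that shares the symbol Pcdha11 with a member.

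Clustered protocadherins are cadherin-like cell surface proteins of neurons that bind an identical isoform on an opposing membrane. In the alpha and gamma clusters each variable exon has its own promoter and is spliced to constant exons at the end of the cluster, whereas each beta gene is a single exon. Individual neurons express a small set of the variable exons, chosen through promoter methylation and CTCF and cohesin looping, while the C-type members at the ends of the alpha and gamma clusters escape this choice. The combination gives a neuron an identity that serves dendrite self-avoidance, axon tiling and synapse formation, and Pcdhgc4 is known for a role in the survival of interneurons.

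RNA-seq of the hippocampus was obtained from 4 WT mice, 4 WT mice given NR (WT + NR), 4 hTau.P301S mice and 4 hTau.P301S mice given NR (hTau.P301S + NR). The hTau.P301S mouse expresses human Tau with the P301S mutation from a transgene under the neuronal Thy1 promoter, and NR (nicotinamide riboside, a NAD+ precursor) was given at 6 mM in drinking water while the other groups drank vehicle water. Per the labels, treatment lasted 3 months, from 12 to 15 months of age, and the study's text gives other ages and lengths. The sex of these mice was not given in the sources used here.

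Total counts ranged from 16490261 to 21915362 per mouse. Thy1, part of which the transgene carries, was at 667 to 1640 CPM in the 8 hTau.P301S and hTau.P301S + NR mice and at 424 to 633 CPM in the 8 WT and WT + NR mice, where CPM is the count relative to the TMM-normalized library total. One library stood apart. Mitochondrial genes took 14.4% of the counts of hTau.P301S replicate 1, in which 19467 genes were detected, against at most 7.07% and at least 22199 genes in the other 15 mice, so fold changes that include this mouse are given with and without it, while overlap counts and permutation tests used all 4 mice of a group. Markers of striatal neurons summed to 1464 CPM in WT replicate 2, 509 CPM in hTau.P301S + NR replicate 4 and 303 CPM in WT + NR replicate 3, and markers of the choroid plexus ranged from 19.1 to 9838 CPM over the 16 mice. All 5 hippocampal markers were found in every mouse.

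The 3 clusters lie in a row on the plus strand of mouse chromosome 18 (GRCm38), the alpha cluster from 36930184 to 37187661, the beta cluster from 37264938 to 37524479 and the gamma cluster from 37661793 to 37841873. In the GENCODE M21 annotation the 22 beta members were single-exon genes with no or at most 455 bases shared with another gene at the 3′ end. Each alpha member shared 2860 to 3198 exonic bases with other genes at its 3′ end, and each gamma member 2116 to 3154 bases. Exonic bases that belong to no other gene had a median of 2480 in the alpha, 3714 in the beta and 2637 in the gamma cluster. Reads from the shared exons fit every member of a cluster, so the count of a single alpha or gamma member depends on how the authors' counter divided such reads and is less certain than that of a beta member. Pcdhgb8 is annotated as a polymorphic pseudogene.

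The gamma cluster was the most abundant of the 3 in sum and the alpha cluster the least. The members held 0.00617% (alpha), 0.0179% (beta) and 0.0298% (gamma) of all counts. Among the 15 mice without hTau.P301S replicate 1 the summed level was 63.9 ± 9.43 CPM for the alpha, 182 ± 19.5 CPM for the beta and 308 ± 37.1 CPM for the gamma members (SD, n = 15). The order gamma, beta, alpha held in each of these 15 mice, in which the gamma cluster took from 50.5% to 59.3% of the counts of the members.

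Within each cluster a few members stood out. On the scale of CPM per kilobase of the deposited gene length, averaged over 16 mice, the alpha cluster spanned 0.108 for Pcdha8 to 5.20 for Pcdhac2, a ratio of 48.3. Pcdhac2 (ENSMUSG00000102697, 37143503 to 37187657, 4 exons), the last alpha gene and a C-type member, made up between 42.3% and 56.3% of the alpha counts in the 15 mice. Pcdha12 and Pcdha5 followed at 0.906 and 0.752 CPM per kilobase. The other alpha C-type member, Pcdhac1, was ninth of 12 at 0.435, so the C-type members were not alike in level.

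In the beta cluster Pcdhb9 (ENSMUSG00000051242, 37400855 to 37403909) led with 8.06 CPM per kilobase, followed by Pcdhb7 with 3.17 and Pcdhb17 with 3.11, and Pcdhb1 was lowest with 0.272. The gamma cluster was led by 2 C-type members, Pcdhgc5 (ENSMUSG00000102543, 37819513 to 37841873, 3 exons) with 9.97 and Pcdhgc3 with 5.99 CPM per kilobase, and then by Pcdhgb6 with 3.41. The remaining C-type member, Pcdhgc4, was eighth of 21 at 2.38, and Pcdhgb8 was lowest at 0.528. Between neighbours in these orders, such as Pcdhb7 and Pcdhb17, the levels in single mice overlapped. The 3 highest members of each cluster were the same when levels were taken per kilobase of exons that no other gene shares, a scale added after the layout was seen, and on that scale Pcdhac2 reached 10.1 and Pcdhgc5 16.5 CPM per kilobase. Over the 15 mice without hTau.P301S replicate 1 the level per kilobase of deposited length was 5.53 for Pcdhac2, 8.27 for Pcdhb9 and 10.6 for Pcdhgc5, and Pcdhb17 and Pcdhb7 changed places at 3.241 and 3.236.

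**Figure D1:**
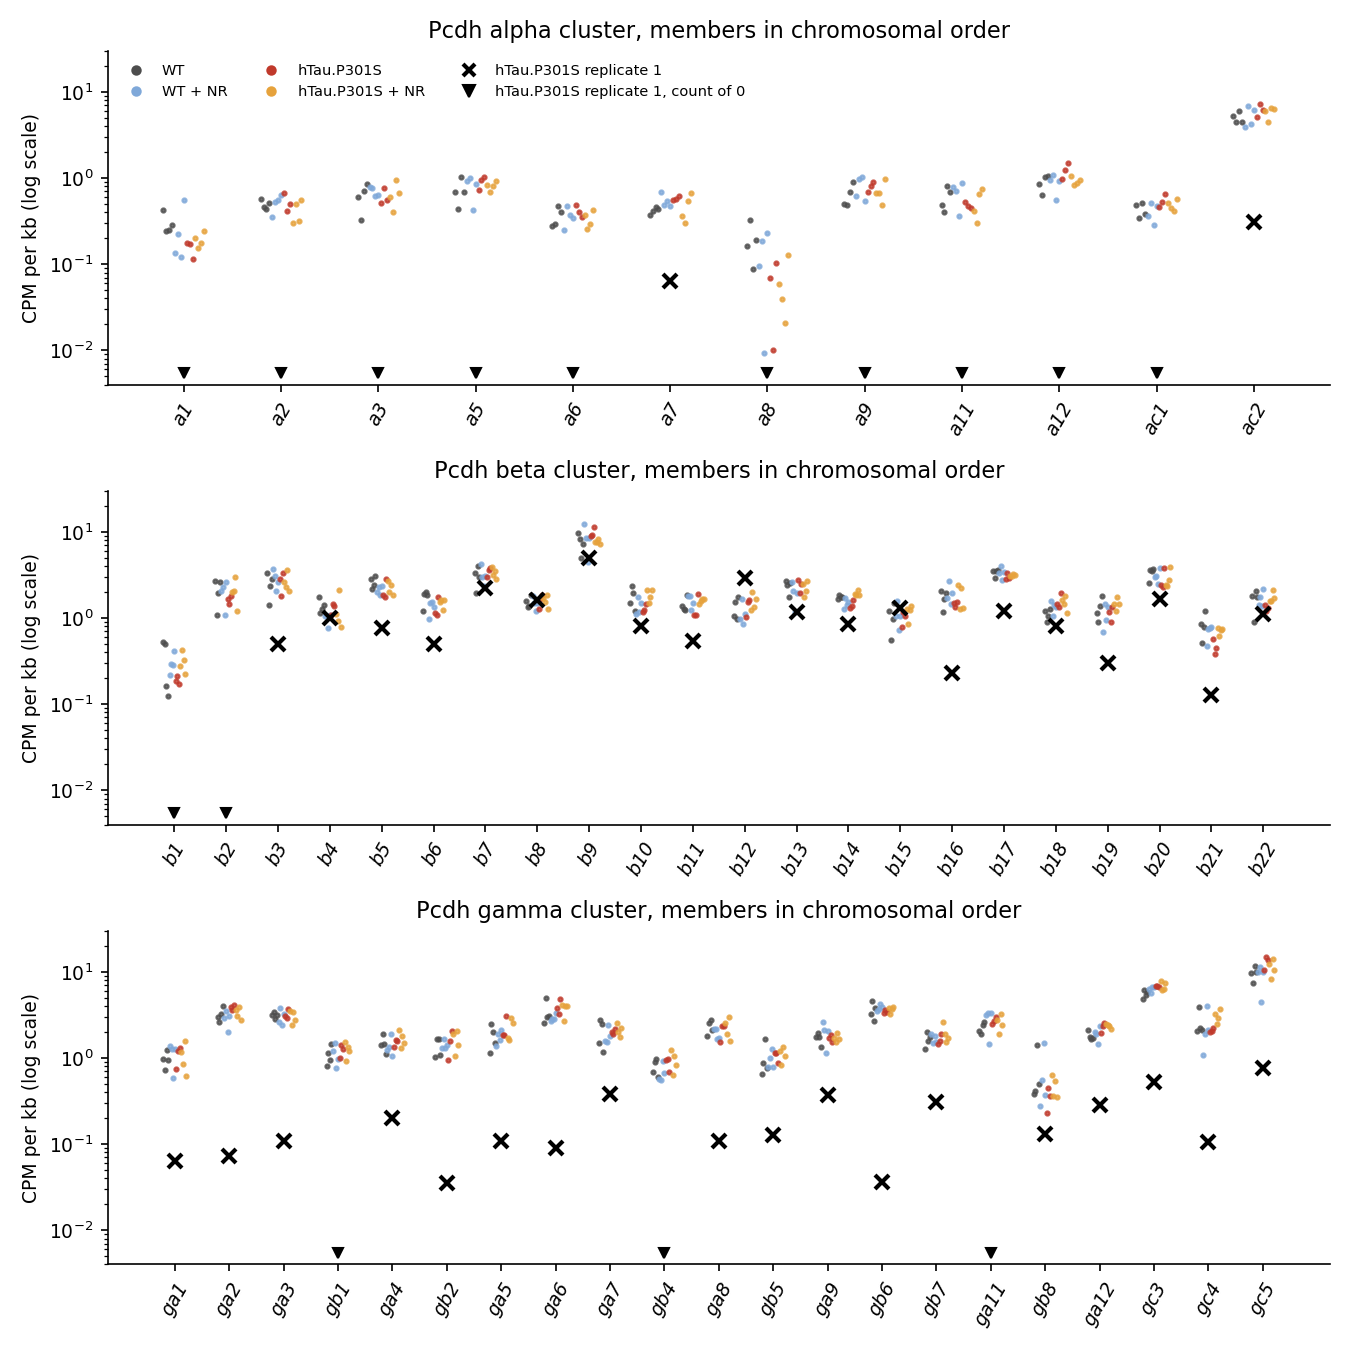
Level of each member in CPM per kilobase of gene length (log axis), in chromosomal order from left to right, with 1 point per mouse colored by group. Crosses are hTau.P301S replicate 1 and triangles near the bottom mark members with a count of 0 in that mouse. The alpha and gamma crosses and triangles lie below all other mice, and the beta crosses lie lower or among them except that of Pcdhb12, which lies above.

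Over the 15 mice, the highest and lowest levels of a member differed by a median ratio of 2.37 in the alpha, 2.31 in the beta and 2.16 in the gamma cluster. Variation around the mean exceeded that of counting alone in every member, by a variance-to-mean index with a median of 4.68 (alpha), 5.67 (beta) and 8.86 (gamma), where pure counting gives about 1. The median was 9.34 over 13456 other genes with mean counts of 10.7 to 1436, the range of all members together. These genes were not matched to the counts of each cluster, and the index can rise with the count, so the medians are not compared. The steadiest member by its ratio was Pcdhb17, from 12.7 to 18.7 CPM.

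Some members varied more than their neighbours by the index or by the ratio of highest to lowest level. The largest ratio in the gamma cluster was 6.48, that of Pcdhgb8. Pcdhgc5 had the largest index, 100, but also the most counts, 22977 in sum, and the index can rise with the count. Its level was 73.8, 56.1, 88.6 and 75.3 CPM in the WT mice, 76.7, 87.6, 33.6 and 76.4 CPM in WT + NR, 5.81, 80.8, 114 and 103 CPM in hTau.P301S, and 94.8, 62.5, 108 and 79.7 CPM in hTau.P301S + NR. The low values outside hTau.P301S replicate 1 were thus those of WT + NR replicate 3 and WT replicate 2.

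Pcdhgc4 had its high values in some of the mice in which Pcdhgc5 was low. It was at 11.3, 21.6, 12.3 and 12.0 CPM in WT, 6.01, 10.5, 22.4 and 11.7 CPM in WT + NR, 0.598, 11.2, 11.4 and 12.6 CPM in hTau.P301S, and 18.2, 13.8, 16.2 and 20.8 CPM in hTau.P301S + NR. Its highest values were in WT + NR replicate 3, WT replicate 2 and hTau.P301S + NR replicate 4, which are the mice with the highest striatal marker sums. The hippocampal marker sum was also lowest in these mice, 346, 378 and 345 CPM against a median of 597 CPM in the 15 mice, and the part of tissue composition in the levels of Pcdhgc4 and Pcdhgc5 was not tested.

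Pcdhgb8 split the mice differently. Its count was 124 in WT replicate 3 and 139 in WT + NR replicate 3, or 6.54 and 6.86 CPM, and lay between 1.06 and 2.91 CPM in the other mice apart from hTau.P301S replicate 1 at 0.598 CPM. Pcdhb9, the leading beta member, was lowest in the same pair of mice, at 15.0 and 13.6 CPM, against 22.3 to 37.9 CPM in the other 13 of the 15 mice. Pcdha8, the least abundant member, ranged from 1 to 31 counts in the 15 mice, or 0.0494 to 1.74 CPM, a ratio of 35.2.

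In hTau.P301S replicate 1 the alpha and gamma clusters were nearly absent and the beta cluster was less reduced. The alpha members summed to 25 counts (2.14 CPM) in this mouse, against 49.6 to 76.9 CPM in the other 15, and 10 of the 12 were at a count of 0, where 3 counts correspond to 0.256 CPM. Of the alpha members only Pcdha7 (4 counts, named after its values were seen) and Pcdhac2 (21 counts) were detected. The gamma members summed to 22.1 CPM against 250 to 367 CPM, with 3 of 21 at a count of 0. The beta members summed to 94.7 CPM against 139 to 209 CPM, with 2 of 22 at 0. No member had a count of 0 in any other mouse.

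The makeup of the members' counts in this mouse changed accordingly. The beta cluster took 79.7% of them (95% Wilson interval 77.5 to 81.7%), the gamma cluster 18.5% (16.6 to 20.7%) and the alpha cluster 1.80% (1.22 to 2.64%), while the beta cluster took at most 37.9% in the other mice. These intervals cover counting error only. Pcdhac2 was 19.5-fold, Pcdhgc5 13.7-fold and Pcdhgc3 11.8-fold below the median of the other 15 mice. All 12 alpha and all 21 gamma members were at their lowest in this mouse, as were 14 of 22 beta members, while Pcdhb12, also named after its values were seen, was at its highest of 16 mice, 8.89 CPM against at most 6.05 CPM, and the remaining 7 lay within the range.

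**Figure D2:**
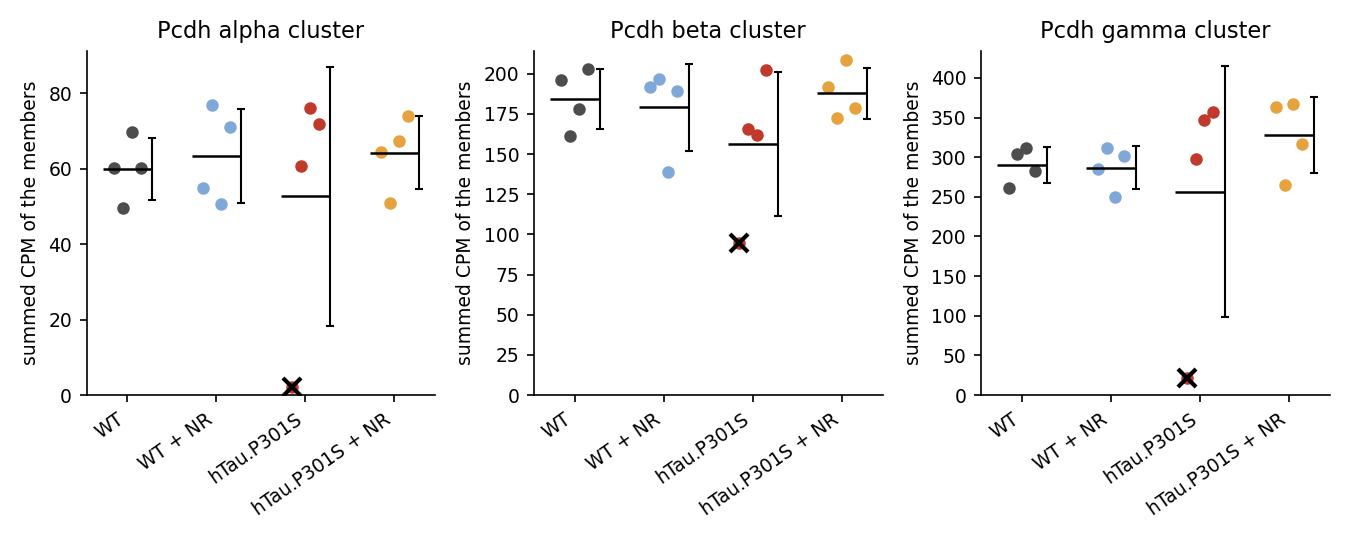
Summed CPM of the alpha, beta and gamma members in each mouse (points), with the group mean (line) and SD (error bar, n = 4). The cross marks hTau.P301S replicate 1, at 2.14 CPM for alpha, 94.7 CPM for beta and 22.1 CPM for gamma, which lies under every other mouse in each panel.

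The alpha and gamma levels in this mouse were lower than those of most other genes. Against the median of the other 15 mice, the median log2 ratio was −4.79 over the 11 alpha, −3.85 over the 21 gamma and −0.97 over the 21 beta members with a median of at least 1 CPM, and −0.13 over all 15033 such genes. Of all these genes, 36.9% were at their lowest in this mouse and 32.7% at their highest. The ratio went with gene length in other protein-coding genes, with a median of 2.64 under 1000 bases, 1.51 from 1000 to 2000, 0.67 up to 3000, 0.15 up to 4000, −0.33 up to 6000 and −0.89 above. The deposited lengths of the members were 5206 to 5888 bases (alpha), 2588 to 8695 (beta) and 4615 to 7627 (gamma), so the members of all 3 clusters had a median below that of genes of their length, the beta members by the least.

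Other single-exon protein-coding genes over 2500 bases, 182 in number, had a median log2 ratio of −0.54 in this mouse. Only 8 other protein-coding genes shared 2000 or more bases with another gene at the 3′ end, and their median was −1.78, with values from −6.38 to 1.03. The summed microglia markers were 850 CPM in this mouse against 208 to 415 CPM in the others, and neuron markers 3506 against 4607 to 10741 CPM. In tissue RNA, fewer neurons and less protocadherin RNA per neuron cannot be told apart, and the part of RNA integrity, read assignment or cell makeup in the low values was not tested.

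**Figure D3:**
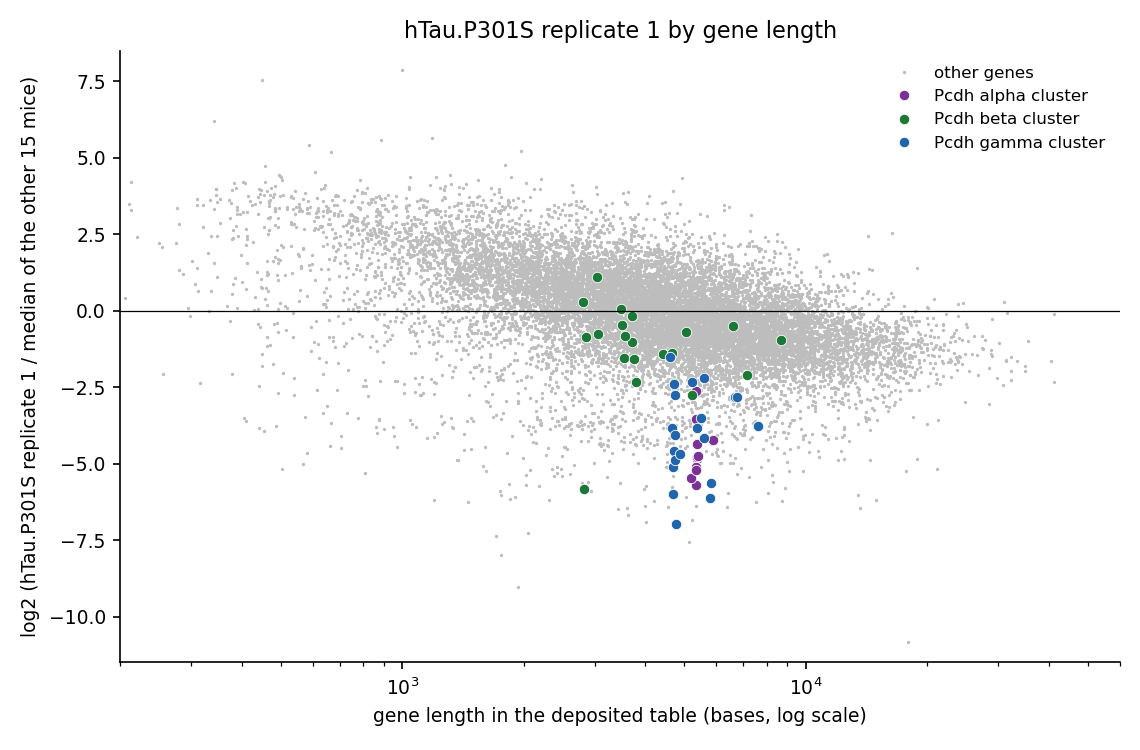
Log2 ratio of hTau.P301S replicate 1 to the median of the other 15 mice for 15033 genes (grey) and the members of the alpha, beta and gamma clusters (colored), against gene length (log axis). Short genes lie above and long genes below zero, and the alpha and gamma members lie under most genes of similar length while most beta members lie among them.

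To ask whether the tauopathy genotype went with a change in the clustered protocadherins, hTau.P301S was compared with WT mice. No member was called among the 53 tested, where a call needed an adjusted p under 0.05 (Benjamini-Hochberg over all genes tested, edgeR quasi-likelihood test) and an absolute log2 fold change above 0.5, and 0.00611% of all 16375 genes were called. DESeq2 called none of the members and 0.702% of all genes. Pcdha8 and Pcdhb1 did not pass the filter on low counts. An unadjusted p under 0.05 was reached by 1 of the 53 members, 1.89%, and by 7.14% of all genes.

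With all 4 hTau.P301S mice the median log2 fold change was −0.11 over 11 alpha, −0.37 over 21 beta and −0.25 over 21 gamma members, with 44 of 53 members lower, and 0.02 over all genes. Without hTau.P301S replicate 1 it was 0.23 over 12 alpha, −0.19 over 21 beta and 0.13 over 21 gamma members, with 24 of 54 lower, and −0.03 over all genes. The direction for the alpha and gamma clusters was therefore set by 1 mouse, while the beta median was below zero in both fits. No member was called without this mouse either, where 0.0832% of all genes were, and 5 of 54 members had an unadjusted p under 0.05, 9.26%, against 11.8% of all genes.

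The summed levels followed the same course. The alpha sum was 59.9 ± 8.20 CPM in WT and 52.7 ± 34.3 CPM in hTau.P301S mice (SD, n = 4 each), and 69.6 ± 7.92 CPM in the 3 hTau.P301S mice without replicate 1. The gamma sum was 290 ± 22.7, 256 ± 158 and 334 ± 31.7 CPM in the same order. The beta sum was 185 ± 18.7, 156 ± 44.9 and 177 ± 22.4 CPM.

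Pcdhb21 was the member with the unadjusted p under 0.05. Its level was 4.0, 2.41, 3.74 and 5.63 CPM in WT and 0.598, 2.70, 1.80 and 2.11 CPM in hTau.P301S mice. The groups overlapped by 1 mouse on each side, and the log2 fold change was −1.12 ± 0.46 (SE, the standard error; edgeR adjusted p = 0.598). A two-sided exact permutation test gave p = 0.0571, where 4 against 4 mice can give no p under 0.0286. Without hTau.P301S replicate 1 the log2 fold change was −0.85 ± 0.34 (SE, edgeR adjusted p = 0.404).

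The levels of 2 of the 53 members did not overlap between hTau.P301S and WT mice, 3.77%, against 6.24% of all genes. They were Pcdha1, named here for this after its values were seen, and Pcdhb14 (ENSMUSG00000044043, 37447656 to 37456350), which has a single exon of 8695 bases. Pcdhb14 was at 14.3, 16.2, 15.3 and 15.0 CPM in WT and at 7.44, 11.4, 11.9 and 13.9 CPM in hTau.P301S mice, all lower. Its log2 fold change was −0.44 ± 0.22 (SE, edgeR adjusted p = 0.598) and −0.30 ± 0.15 (SE, edgeR adjusted p = 0.467) without hTau.P301S replicate 1. A two-sided exact permutation test gave p = 0.0286 with all mice, before any correction for 53 members. Groups of this size without overlap always give this p, so it adds nothing to the lack of overlap. Pcdha1 had 23 to 41 counts in the WT and 0, 18, 17 and 11 counts in the hTau.P301S mice.

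**Figure D4:**
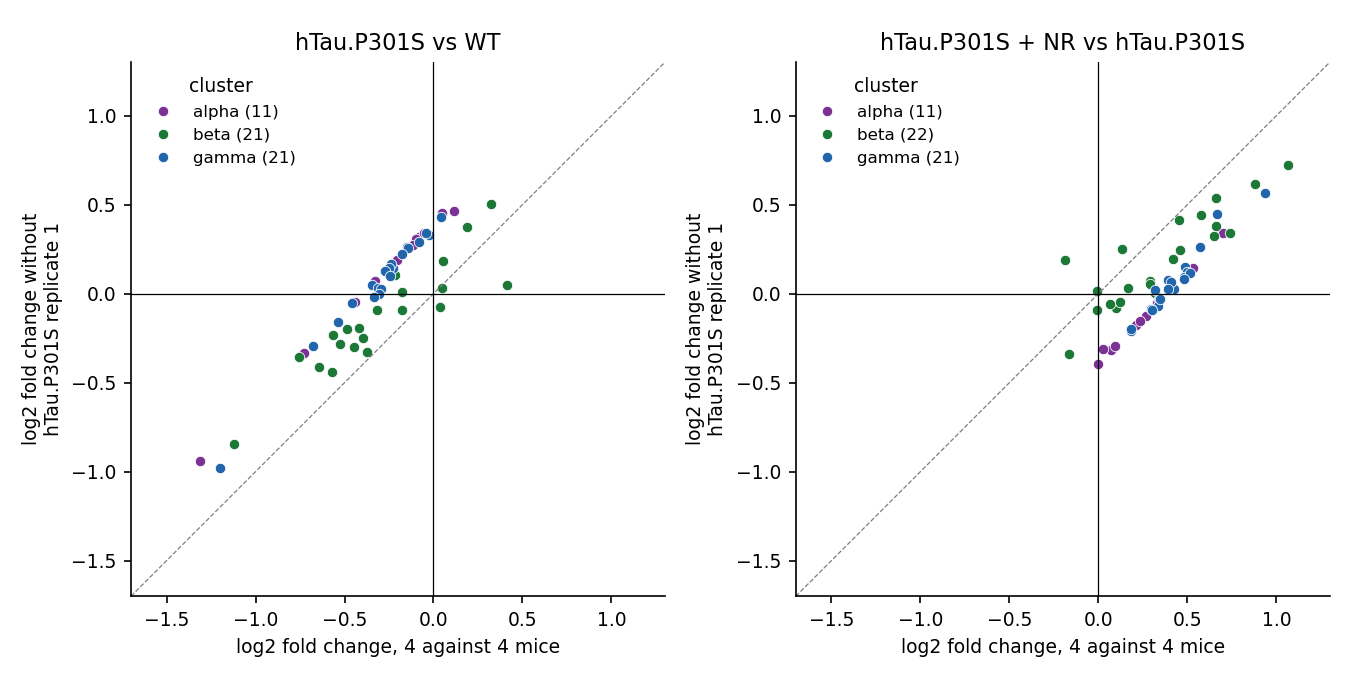
Log2 fold change of each member with all mice (horizontal) and without hTau.P301S replicate 1 (vertical), for hTau.P301S relative to WT (left) and hTau.P301S + NR relative to hTau.P301S (right), colored by cluster with the number of members in brackets. On the left, most alpha and gamma members lie left of zero with all mice and above zero without that mouse.

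Whether NR went with a change of the clusters in tauopathy was asked by comparing hTau.P301S + NR with hTau.P301S animals. None of 54 members tested was called by edgeR or by DESeq2, against 0.00610% and 1.73% of all genes. An unadjusted p under 0.05 was found in 3 of 54 members, 5.56%, and in 12.9% of all genes. With all mice 49 of 54 members were higher with NR, among them all 21 gamma members, and the median log2 fold change was 0.23 (alpha), 0.30 (beta) and 0.40 (gamma). When hTau.P301S replicate 1 was left out, 34 of 54 were higher, and the medians were −0.16, 0.19 and 0.06, against −0.03 and 0.00 over all genes with and without it.

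These 3 members were all of the beta cluster and higher with NR. Pcdhb14 was at 16.6, 16.02, 18.1 and 16.2 CPM in hTau.P301S + NR mice, above all 4 hTau.P301S mice given above and above 3 of the 4 WT mice. Its log2 fold change was 0.58 ± 0.21 (SE, edgeR adjusted p = 0.367). Pcdhb10 was at 6.10, 4.23, 4.93 and 5.98 CPM with NR and at 2.31, 3.34, 3.54 and 4.16 CPM without, and Pcdhb22 at 10.3, 10.3, 13.8 and 11.3 CPM with and 7.27, 9.32, 7.95 and 8.59 CPM without. Their log2 fold changes were 0.66 ± 0.26 (SE) and 0.46 ± 0.18 (SE), with an adjusted p of 0.367 for both in edgeR. Leaving out hTau.P301S replicate 1, they were 0.54 ± 0.22 (SE, adjusted p = 0.239, edgeR) and 0.41 ± 0.16 (SE, adjusted p = 0.233, edgeR). For all 3 the groups did not overlap, and the two-sided exact permutation p was 0.0286, the smallest that 4 against 4 mice allow, before any correction for 54 members. That p follows from the lack of overlap.

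In all, 6 of 54 members did not overlap between these groups, 11.1%, close to the 11.9% of all genes, and each was higher with NR. Besides the 3 above they were Pcdhb1, Pcdhb21 and Pcdhgc4. Without hTau.P301S replicate 1, no member was called by edgeR, against 0.197% of all genes, and 6 of 54 members had an unadjusted p under 0.05, 11.1%, against 18.0% of all genes. In that fit the log2 fold change was 0.44 ± 0.13 (SE, adjusted p = 0.142) for Pcdhb14 and 0.56 ± 0.16 (SE, adjusted p = 0.136) for Pcdhgc4, both by edgeR. DESeq2 without this mouse, an alternative chosen after seeing the data, called Pcdhgc4 (log2 fold change 0.56, adjusted p = 0.0491) and 4.19% of all genes.

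Pcdhgc4 was also high in hTau.P301S + NR replicate 4, where the striatal markers summed to 509 CPM against 74.2 to 130 CPM in the hTau.P301S group. The other hTau.P301S + NR mice, at the lower values given above, also lay above all hTau.P301S mice in Pcdhgc4. The part of tissue composition in this difference was not tested. In the fit without the 3 mice of highest striatal marker sums no member was called in any of the 6 comparisons. Pcdhb14 had a log2 fold change of 0.59 there (adjusted p = 0.534, edgeR) for NR in hTau.P301S mice. That fit still included hTau.P301S replicate 1, and no fit left out this mouse together with those of high striatal sums. Pcdhb10 was at 0.60 in the same fit and comparison (adjusted p = 0.534, edgeR). Its highest value of all was in WT replicate 2, which this comparison does not hold.

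**Figure D5:**
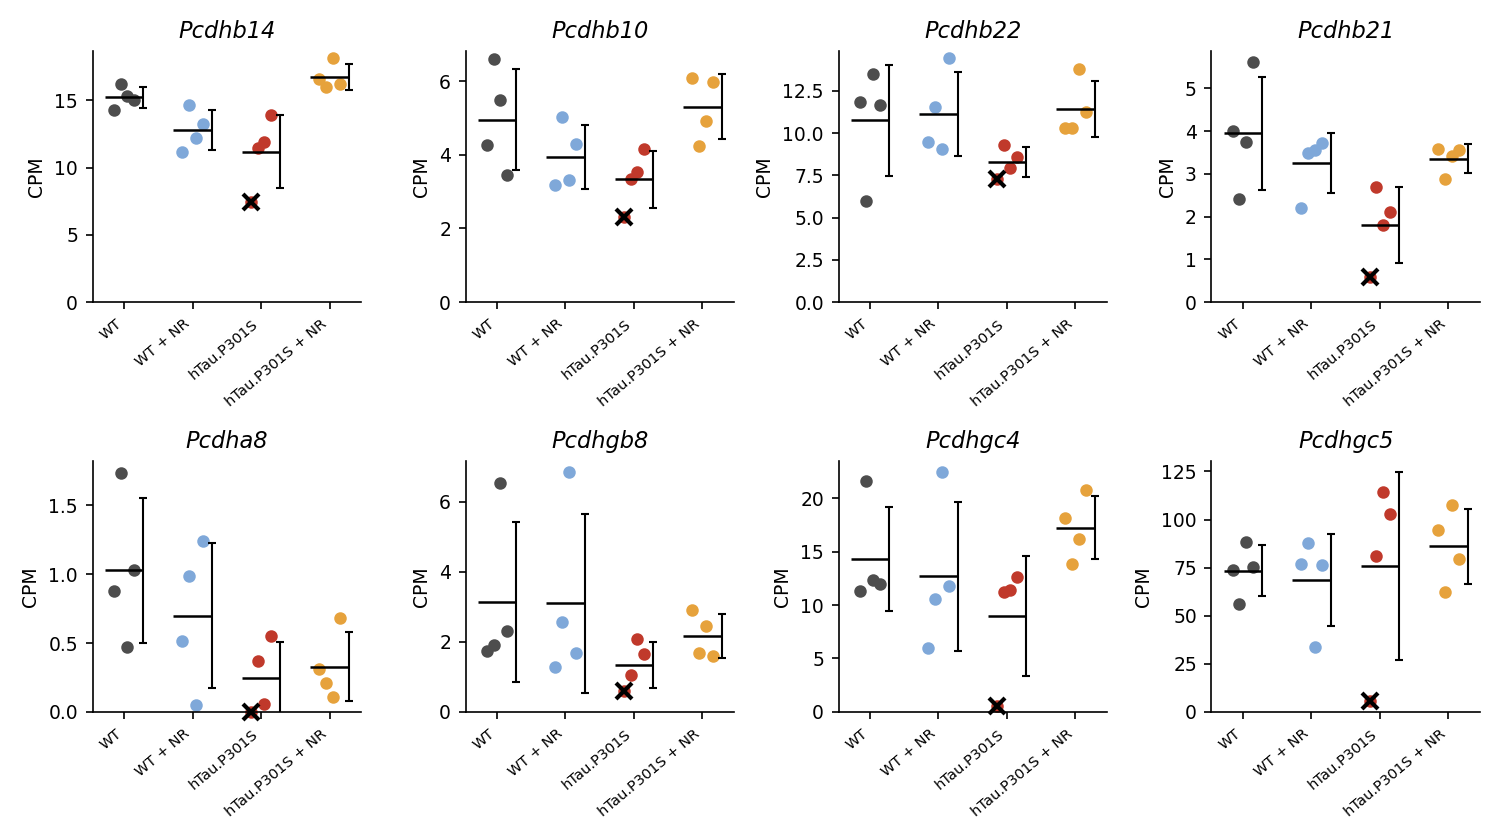
CPM of 8 members in each mouse by group, with the group mean (line) and SD (error bar, n = 4), and hTau.P301S replicate 1 marked by a cross. For Pcdhb14 all 4 hTau.P301S + NR mice lie above all 4 hTau.P301S mice, and for Pcdhgb8 a single mouse of the WT group and a single mouse of the WT + NR group lie far above the rest.

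In WT mice NR went with no call in the 55 members tested by edgeR or DESeq2, and 0% of all genes were called by each. No member had an unadjusted p under 0.05 in edgeR and 1 had in DESeq2, against 0.790% of all genes in edgeR and 1.10% in DESeq2. The median log2 fold change was 0.06 (alpha), −0.07 (beta) and −0.0045 (gamma). The levels of 2 of 55 members did not overlap, 3.64%, against 0.754% of all genes. These members, named after their values were seen, were Pcdha7, at 1.97 to 2.48 CPM in WT and 2.54 to 3.70 CPM in WT + NR mice, and Pcdhb4, at 4.20 to 6.47 CPM in WT and 2.86 to 4.06 CPM in WT + NR mice (log2 fold change −0.49 ± 0.22 SE, edgeR adjusted p = 0.99994).

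Under NR, hTau.P301S + NR was compared with WT + NR mice, groups that hold none of the mice of the comparison of hTau.P301S with WT. Of 54 members none was called, against 0.0540% of all genes in edgeR and 0.348% in DESeq2. The median log2 fold change was −0.11 (alpha), 0.06 (beta) and 0.20 (gamma). An unadjusted p under 0.05 was found in 1 of 54 members, 1.85%, against 6.09% of all genes. The same Pcdhb14 was the only member without overlap, 1.85% against 3.73% of all genes, with 11.1, 14.6, 12.2 and 13.2 CPM in WT + NR mice and the higher values given above in hTau.P301S + NR mice (log2 fold change 0.39 ± 0.13 SE, edgeR adjusted p = 0.781).

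The genotype difference did not have the same sign in the 2 comparisons more often among members than among all genes. With all mice 23 of 53 members, 43.4%, had the same sign in both, and 45.1% of 16132 genes. Leaving out hTau.P301S replicate 1, the share was 30 of 53 members, 56.6%, and 58.2% of 16362 genes. Pcdhb14 had opposite signs, below WT in the first comparison and above WT + NR in the other.

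With genotype taken over all 16 mice, no member of 55 was called, against 0.159% of all genes in edgeR and 0.951% in DESeq2. An unadjusted p under 0.05 was found in 2 members, 3.64%, both lower in the hTau.P301S genotype, and in 9.06% of all genes. Pcdha8 had 9 to 31 counts in WT and 1 to 22 in WT + NR mice, and 0 to 10 in hTau.P301S and 2 to 14 in hTau.P301S + NR mice, so the genotypes overlapped. Its log2 fold change was −1.51 ± 0.61 (SE, edgeR adjusted p = 0.466), and the two-sided exact permutation test of 8 against 8 mice gave p = 0.0177, uncorrected. The fit of 15 mice gave −1.34 ± 0.57 (SE, edgeR adjusted p = 0.300).

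Pcdhgb8 was the other, with a log2 fold change of −0.86 ± 0.40 (SE, edgeR adjusted p = 0.545), a value that includes the pair of high mice, WT replicate 3 and WT + NR replicate 3, in the WT genotype. Without hTau.P301S replicate 1 it was −0.75 ± 0.39 (SE, edgeR adjusted p = 0.387). In that fit 0.436% of all genes but no member were called, and 4 members had an unadjusted p under 0.05, 7.27%, against 14.7% of all genes. The gamma members then were higher in the hTau.P301S genotype in 18 of 21, against 7 of 21 with all mice.

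The interaction of NR with genotype asks whether NR changed a member differently in hTau.P301S and WT mice. By edgeR no member and 0% of all genes were called, and DESeq2 called no member and 0.103% of all genes. An unadjusted p under 0.05 was found in 3 of 55 members, 5.45%, and in 7.92% of all genes. They were Pcdhb14 with an interaction of 0.83 ± 0.25 on the log2 scale (SE, adjusted p = 0.558), Pcdhb10 with 0.99 ± 0.37 (SE, adjusted p = 0.558) and Pcdhb21 with 1.16 ± 0.51 (SE, adjusted p = 0.558), all by edgeR.

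In the 15 mice the same 3 members had an unadjusted p under 0.05, 5.45%, and 7.50% of all genes had. Again 0% of all genes were called by edgeR, and Pcdhb14 stood at 0.69 ± 0.17 (SE, adjusted p = 0.475), Pcdhb10 at 0.87 ± 0.34 (SE, adjusted p = 0.639) and Pcdhb21 at 0.89 ± 0.38 (SE, adjusted p = 0.647), all by edgeR. DESeq2 in these mice called Pcdhb14 (0.69, adjusted p = 0.0414) and 0.179% of all genes. In mean level Pcdhb14 was 15.2 ± 0.803 CPM in WT, 12.8 ± 1.49 CPM in WT + NR, 11.2 ± 2.71 CPM in hTau.P301S and 16.7 ± 0.965 CPM in hTau.P301S + NR mice (SD, n = 4 each), so the mean with NR was below the mean without it in WT and above it in hTau.P301S mice.

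Genes that act on or with the clusters gave no call either, in lists written with earlier results of these data known. None of 18 regulators of protocadherin choice (CTCF, cohesin, DNA methyltransferases and others) was called in any of the 6 comparisons. Dnmt3a, a de novo DNA methyltransferase, had the smallest p of the list in both comparisons of the hTau.P301S group, with log2 fold changes of −0.63 relative to WT (adjusted p = 0.598, edgeR) and 0.61 with NR (adjusted p = 0.367, edgeR), and −0.47 (adjusted p = 0.431) and 0.45 (adjusted p = 0.133) without hTau.P301S replicate 1. Of 22 partners and effectors such as focal adhesion kinase and the WAVE complex none was called, and Ret, a receptor kinase that clustered protocadherins bind, had the smallest p with a log2 fold change of 1.95 for NR in hTau.P301S mice (adjusted p = 0.306, edgeR), and of 1.77 without hTau.P301S replicate 1 (adjusted p = 0.0853, edgeR).

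The 12 non-clustered protocadherins, which are single genes elsewhere in the genome, were likewise without a call. For NR in hTau.P301S mice their median log2 fold change was 0.81 over 11 tested, and 0.55 without hTau.P301S replicate 1. At an unadjusted p under 0.05, 5 and 6 of them were higher and 0 and 1 lower, against 12.9% and 18.0% of all genes in either direction. The 12 non-clustered protocadherins summed to 290 CPM in hTau.P301S replicate 1 against 784 to 1236 CPM in the other mice. Longer genes were lower in this mouse in general, and this sum was not set against genes of like length.

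Marker lists were set beside these comparisons, and for hTau.P301S relative to WT no marker was called with or without hTau.P301S replicate 1. The median log2 fold change over 6 striatal neuron markers was −2.51 with and −2.50 without this mouse. At an unadjusted p under 0.05, 4 and 3 of them were lower, against 7.14% and 11.8% of all genes in either direction. Both fits included WT replicate 2, whose striatal marker sum was 1464 CPM. The sums were 147, 72.6 and 78.1 CPM in the other WT mice and 74.2 to 130 CPM in hTau.P301S mice. The median was 0.52 and 0.11 over 6 microglia markers and 0.67 and 0.47 over 6 oligodendrocyte markers, in the same order. The signs of the median differed between the fits for 6 astrocyte markers, −0.15 and 0.12, and for 5 hippocampal markers, −0.09 and 0.21. The astrocyte markers ranged from −0.34 to 1.24 with this mouse and from −0.14 to 1.19 without it. Gfap was the highest of them in both fits (adjusted p = 0.598 and 0.298, edgeR). The medians were 0.20 and 0.46 over 7 neuron markers, −0.62 and −0.67 over 4 endothelial markers, and −0.99 and −0.68 over 4 meningeal fibroblast markers. Choroid plexus markers had a median of −1.13 over the 5 tested with this mouse and −0.72 over the 6 tested without it. For NR in hTau.P301S mice the median over the striatal markers was 1.70 in both fits. In each fit 5 of 6 were higher at an unadjusted p under 0.05, against 12.9% and 18.0% of all genes in either direction. Both fits included hTau.P301S + NR replicate 4, whose sum was 509 CPM, against 105, 166 and 69.9 CPM in the other mice of its group. Gad2, a marker of inhibitory neurons, was called in this comparison only without hTau.P301S replicate 1 (log2 fold change 1.05, adjusted p = 0.0496, edgeR). The 7 neuron markers, which include Gad2, had a median of −0.10 with and −0.29 without this mouse. In the latter fit 2 were higher and 2 lower at an unadjusted p under 0.05, against 18.0% of all genes. For the interaction of NR with genotype the median over the striatal markers was 3.15 with and 3.14 without this mouse. In each of these fits 4 of 6 were higher and 0 lower at an unadjusted p under 0.05, against 7.92% and 7.50% of all genes. The part of these differences in the levels of the members was not tested beyond the fits without the mice named.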

How the data were processed

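Reads of the poly(A) RNA of 16 hippocampi were trimmed by the authors with Trim Galore after FastQC, aligned to mm10 with STAR and counted per gene with RSEM, and the raw counts were deposited, as whole numbers without normalization. Tool versions, the annotation release and the handling of strand were not given in the sources used here. The deposited length of a gene, whose definition the authors do not state, equalled the merged exon length in GENCODE M21 for 98.0% of 54409 genes matched by identifier and for all 55 members.

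The members and gene lists were chosen with earlier results of these data known. Groups came from the sample labels. The fit of each pair of groups used edgeR 4.0.16 under R 4.3.3 (default filter on low counts, TMM, quasi-likelihood test, 8 mice), and genotype and the interaction over 16 mice. P-values were adjusted over all genes tested by the Benjamini-Hochberg method. A call needed an adjusted p under 0.05, and outside the interaction also a log2 fold change beyond 0.5 in size. Standard errors were derived from the fold change and the test statistic. Exact permutation tests of single members were two-sided, on log2(CPM + 0.5) with scipy 1.17.1, and the ratio of one mouse to the others used a pseudocount of 0.1 CPM. The scripts were tested on simulated counts.

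Members named were the 3 highest per kilobase in each cluster, the C-type members, those called or with an unadjusted p under 0.05 (at most 8 per comparison), those nearest the count limit and, from each list, the gene with the smallest p. Others are said to be chosen after their values were seen. The labels number the animals of a group without saying more, and p-values measure the spread between these samples. No libraries of a group were alike within sampling noise. Alternatives were DESeq2 1.42.0, its size factors, other filters, removal of mitochondrial genes, robust fitting, all groups in one fit, a replicate block and each mouse left out. Splicing and sequences were not analysed here.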

Additional observations from a re-analysis of the deposited data

Results flagged for a closer look

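A mouse was taken to lie apart from the 3 others of its group where its gap to the nearest of them, divided by the range of the group, exceeded Dixon's 95% value for 4 samples. Of 84 groups tested, 4 for each of the 3 cluster sums and 18 named members, 8 held such a mouse, and chance gives about 1 in 20. In hTau.P301S replicate 1 there were 3: Pcdhgb6 at 0.171 CPM against 15.5 to 17.0 CPM in the other hTau.P301S mice, Pcdhgc3 at 2.91 CPM against 37.0 to 37.6 CPM, and Pcdhgc4 at 0.598 CPM against 11.2 to 12.6 CPM. WT + NR replicate 3 was low in the sum of the beta cluster, 139 CPM against 189 to 197 CPM in its group. WT replicate 2 was low in Pcdhb17, 13.6 CPM against 16.4 to 16.9 CPM, and high in Pcdhgc4, 21.6 CPM against 11.3 to 12.3 CPM. WT + NR replicate 1 was low in Pcdhb21, 2.21 CPM against 3.50 to 3.72 CPM. WT replicate 3 was high in Pcdhgb8, 6.54 CPM against 1.75 to 2.33 CPM.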

How the results depend on the processing

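The number of members called was 0 in each of the 6 comparisons and stayed 0 in 118 of 120 refits, which include each mouse left out (0 to 0 in every comparison). The exceptions were DESeq2 without hTau.P301S replicate 1, chosen after seeing the data, with 1 member called for NR in hTau.P301S mice and 1 for the interaction. Counts at an unadjusted p under 0.05 moved by over 1.5 times in 41 of 120 refits and ranged from 0 to 6 of the members. The log2 fold changes of the members named by their p kept their sign in every refit. The cluster medians of the alpha and gamma members changed sign without hTau.P301S replicate 1 for hTau.P301S relative to WT, for genotype and for the interaction, and that of the alpha members also for NR in hTau.P301S mice. The cause was not tested.

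Same-numbered mice are different animals, and their deviations from the group means correlated between −0.54 and 0.29, so the numbers were not taken to pair the mice. With the replicate number as a block 0 members were called in each comparison, and 1 in place of 3 members had an unadjusted p under 0.05 for NR in hTau.P301S mice and 1 in place of 2 for genotype. The share of all genes with such a p also fell under the block, from 12.9% to 5.88% for NR in hTau.P301S mice and from 9.06% to 7.70% for genotype.

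Low counts limit Pcdha8 and Pcdhb1 most, and shared exons limit single alpha and gamma members.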
